A study of Sus scrofa with 3 samples.

Results

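The genes described here encode the machinery that brings a new protein into the endoplasmic reticulum (ER), folds it there and carries it to the Golgi, together with relatives that share its gene names. The members were chosen by gene symbol: SEC, SSR, SRP and TMED genes with a number, SPCS, PDIA, the COPI coat genes, the numbered DNAJB and DNAJC genes, and 7 genes named individually (HSPA5, HSP90B1, CALR, CANX, RPN1, RPN2 and DDOST). A total of 70 genes, with 114 probe sets, were found among the 6765 genes that have a probe set of their own in the platform table, and RPN2 was not analysed here. Where a gene had several probe sets, the brightest by mean log2 signal over the 3 arrays was used. The question was whether this machinery is more abundant on E60, when the germ has entered the secretory stage.

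RNA came from the last deciduous molar germs of the mandible, with their dental lamina, of Wuzhishan miniature pig embryos on embryonic days 40, 50 and 60 (E40, E50 and E60). At these stages the germ is at the cap stage without a secondary dental lamina (E40), at the bell stage when that lamina begins (E50), and at the stage named secretory in the labels and late bell in the methods of the study (E60). Germs of 1 litter were pooled for each stage, no embryo was treated, and each pool was read on 1 Porcine Genome Array from Affymetrix, a chip that reads each transcript with short oligonucleotides near its 3′ end. With 1 array per stage, the spread between germs or litters is unknown, no p-value can be given, and each difference is one between single pools.

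Proteins that leave a cell are recognised while they are still being made. The signal recognition particle docks the ribosome at the ER membrane, the SEC61 channel takes the growing chain through it, signal peptidase removes the signal sequence, and oligosaccharyltransferase attaches sugars to asparagine. Chaperones and disulfide isomerases fold the chain, COPII vesicles carry it toward the Golgi, p24 proteins take part in loading cargo, and COPI vesicles return escaped ER proteins. Ameloblasts and odontoblasts, which lay down enamel and dentin matrix, are known for an extensive rough ER.

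Signals are MAS5 values scaled by the authors to the same trimmed mean on each array (about 500.1). Signals below the 25th percentile of an array (29.3 on E40, then 17.2 on E50 and 21.8 on E60) were set to it, and a difference of more than 2-fold between stages was called higher or lower. All 70 members were measured in every pair of stages, and only SPCS2 on E60 lay under the percentile. As a yardstick of precision, 142 genes of the array had a pair of probe sets that both read 1000 or more on all arrays. The log2 changes read by the 2 probe sets of such a gene differed with an SD of 0.37 on E60 versus E50 and of 0.42 in each of the other pairs, a spread made up of noise and of unlike probes. Scaling the arrays to equal medians instead would add -0.08 to the log2 changes on E60 versus E50, 0.39 to those on E50 versus E40 and 0.31 to those on E60 versus E40, for all genes alike, so smaller changes of the opposite sign turn round under it. The directions given are those of the authors' scaling.

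No secretory pathway gene was called between the bell and the secretory stage. Between E60 and E50, 0 of 70 members rose and 0 fell by more than 2-fold, beside 4.37% higher and 1.75% lower among the 6178 genes measured. The members were mostly bright, and among the brightest 25% of genes, those with a mean signal of at least 1339, calls were few as well: 0.788% of the 1650 genes that are not members were higher and 0.545% lower. The members' log2 changes lay between -0.80 and 0.98, with a median of 0.12 and an interquartile range of -0.07 to 0.35. Over all genes the median was -0.04 and the interquartile range -0.27 to 0.25. A change above 0 was seen in 46 of 70 members (65.7%), against 46.0% of all genes. In 49 members the change lay within the SD between bright probe sets of a gene, in 15 (21.4%) it was above it and in 6 (8.57%) below it, against 18.2% above and 16.3% below over all genes. The difference between the members and the other genes was not tested, as 1 array per stage allows no test.

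The members above that SD on E60 versus E50 were SSR3, DNAJB9, SEC31B, SRP54, DNAJB4, SEC62, SEC24D, SEC61A1, COPZ2, SEC14L2, COPG1, SEC14L1, SEC63, COPB1 and SEC61G. Those below it were DNAJC9, COPB2, DNAJB14, DNAJC17, COPG2 and DNAJC8. The share of members above the SD is near that of all genes (21.4% and 18.2%), and the share below it is smaller (8.57% and 16.3%). The SD comes from bright genes, while all genes include many dim ones, so these shares do not compare genes of like brightness. Of the 8 translocon genes, 5 are in the first list and 0 in the second.

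**Figure D1:**
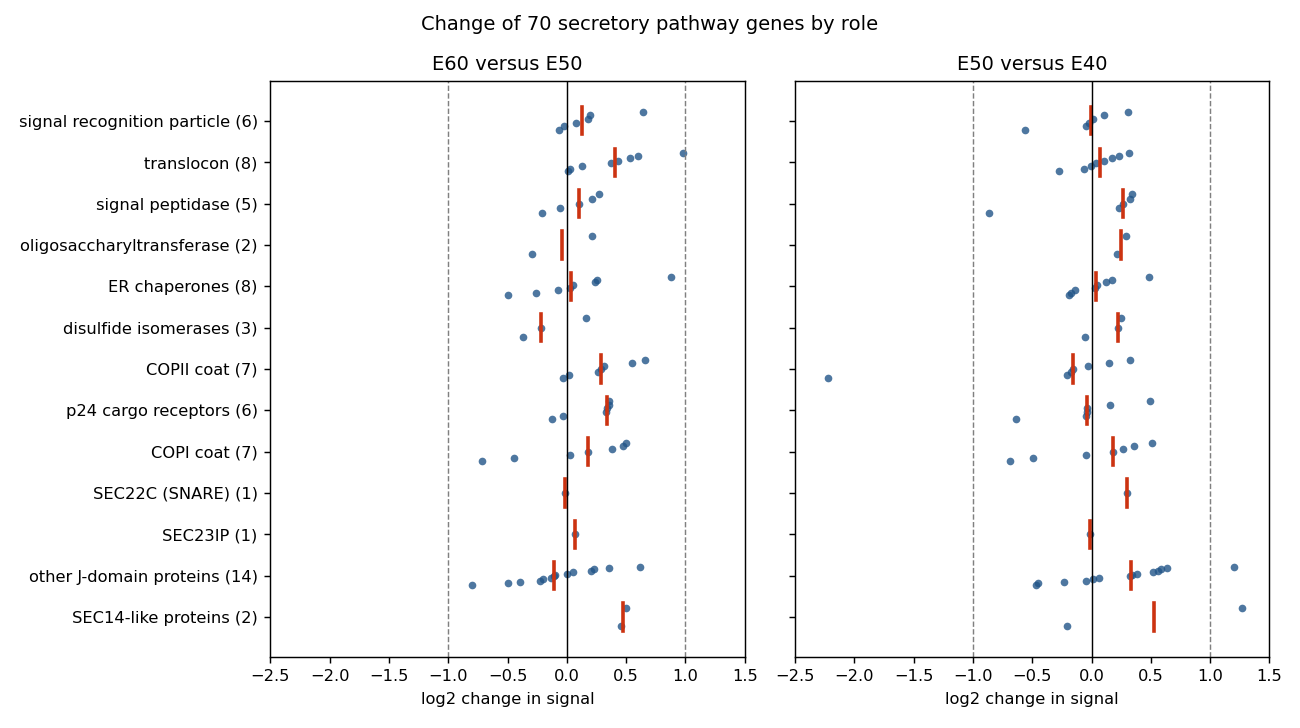
Log2 change in signal (horizontal axes) of each of the 70 genes (blue points) on E60 versus E50 (left) and E50 versus E40 (right), grouped by role (vertical axis, number of genes in brackets), with the median of each role in red and the 2-fold limits dashed. All 8 translocon genes lie above 0 on E60 versus E50 with the authors' scaling (6 of 8 with equal medians), no point passes the 2-fold limits in that pair, and SEC31B lies far to the left on E50 versus E40.

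Of the roles with more than 2 genes, the translocon had the highest median change toward E60. All 8 had a log2 change above 0 on E60 versus E50 with the authors' scaling, against 6 with equal medians, 6 with housekeeping scaling and 7 with quantile normalization. The median was 0.40 and the range 0.01 to 0.98. All 8 were also above 0 on E60 versus E40, under these 3 other scalings too (median 0.43), while on E50 versus E40 the median was 0.07, with 5 of 8 above 0 (3 with quantile normalization, 8 with equal medians). SSR3 encodes a subunit of the translocon-associated protein complex, which sits beside the channel. Its signal was 1852 on E40, then 1533 on E50 and 3024 on E60, so E60 stood apart from both earlier stages. The difference between E60 and E50 was 1.97-fold, just inside the 2-fold limit.

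SEC62, whose product helps short proteins enter the channel, read 1541 on E40, then 1534 on E50 and 2319 on E60. Its log2 change was 0.60 on E60 versus E50 and -0.01 on E50 versus E40, so the difference lay in the second step. SEC61A1 encodes the channel itself. It read 1048 on E40, then 1180.2 on E50 and 1706 on E60, a change of 1.45-fold on E60 versus E50. Another probe set of SEC61A1 read 50.2, 58.4 and 65.7 on E40, E50 and E60 and was thus also highest on E60, though with a smaller change (0.17 on the log2 scale). SEC63, a membrane J-domain protein that recruits the chaperone BiP to the channel, read 2075 on E40, then 1989 on E50 and 2684 on E60. Its dimmer probe sets went apart on E60 versus E50, with log2 changes of 0.14 and -0.09. On E60 versus E40 both went against the brightest SEC63 probe set (0.37), with -0.52 and -0.36, so the direction of SEC63 in that pair rests on the probe set.

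The small channel subunits differed less. SEC61G was at 4728 on E60 against 3646 on E50 (1.3-fold), and SEC61B was at 3959.5 on E60 against 3616 on E50 (1.09-fold). SSR4 and SSR2, subunits of the complex that also holds SSR3, had log2 changes of 0.01 and 0.03 on E60 versus E50, beside 0.98 for SSR3. SSR4 stood at 10399 on E40, then 12234 on E50 and 12345 on E60, with its larger step between E40 and E50 (0.23).

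Of the 6 genes of the signal recognition particle, only SRP54 lay past the SD between bright probe sets on E60 versus E50. SRP54 encodes the GTPase subunit that binds the signal sequence, and its signal was 974 on E40, then 661 on E50 and 1030.1 on E60, lowest on E50. Its log2 changes were 0.64 on E60 versus E50, -0.56 on E50 versus E40 and, over both steps, 0.08 on E60 versus E40, so the level on E60 was back at that on E40. SRP14 and SRP9 form the part of the particle that pauses translation. SRP14 was brighter at each stage (2742 on E40, then 3387 on E50 and 3832 on E60), and SRP9 went the same way (1643 on E40, then 1767 on E50 and 2024 on E60). SRP19, SRP68 and SRP72, which assemble the particle, had log2 changes between -0.07 and 0.08 on E60 versus E50. A second, dimmer SRP19 probe set was lowest on E50, with a log2 change of 1.75 on E60 versus E50, while the brightest read 2945 on E40, then 2967 on E50 and 2923 on E60. The probe sets of SRP19 therefore disagreed.

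The genes of signal peptidase differed between stages by small amounts. SEC11C, a catalytic subunit, was at 1728 on E40, then 2164 on E50 and 2504 on E60, brighter at each stage. The other catalytic subunit gene, SEC11A, peaked on E50 (4193 on E40, then 5312 on E50 and 4586 on E60). SPCS1 and SPCS3 encode subunits without catalytic activity. SPCS1 was at 6447 on E40, then 7729 on E50 and 8297 on E60 and SPCS3 at 849 on E40, then 996 on E50 and 1201 on E60. Both were brighter at each stage, and neither passed the SD between probe sets on E60 versus E50. SPCS2 was read by a dim probe set at 41.5 on E40, then 22.7 on E50 and 18.7 on E60, close to the percentile used as a limit, and its values carry little weight.

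Of the 2 oligosaccharyltransferase subunits among the members, RPN1 was brighter at each stage and DDOST was not. RPN1, known as ribophorin I, had signals of 5807 on E40, then 7085 on E50 and 8206 on E60, a change of 1.41-fold on E60 versus E40. DDOST had signals of 5488 on E40, then 6375 on E50 and 5193 on E60, highest on E50. On E60 versus E50 the log2 changes of RPN1 and DDOST were 0.21 and -0.30. Further subunits are counted below with the other ER folding and glycosylation genes. Of those, STT3A, STT3B, DAD1 and MAGT1 were brighter at each stage, and OSTC, TUSC3, OST4 and KRTCAP2 were not.

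The major ER chaperones had no common direction on E60 versus E50, with 5 of 8 genes above 0 and a median of 0.04. HSPA5 encodes BiP, the Hsp70 of the ER lumen, and its signal was 8905 on E40, then 7882 on E50 and 8019 on E60. HSP90B1 encodes GRP94, the Hsp90 of the ER, and read 4961 on E40, then 4508 on E50 and 4275 on E60. CALR encodes calreticulin, a lectin chaperone that also binds calcium, and read 3541 on E40, then 3096 on E50 and 2588 on E60. HSP90B1 and CALR were dimmer at each stage, and HSPA5 was brightest on E40. The log2 changes of HSPA5, HSP90B1 and CALR on E60 versus E40 were -0.15, -0.21 and -0.45, of which those of HSPA5 and HSP90B1 are smaller than the shift of equal medians. A second HSP90B1 probe set was also highest on E40 (1542, then 910.5 on E50 and 926 on E60). CANX encodes calnexin, the membrane-bound relative of calreticulin. CANX had signals of 5186 on E40, then 5293 on E50 and 6303 on E60, and its second bright probe set read 3179.5 on E40, then 3468 on E50 and 4979 on E60, so both were highest on E60. The remaining 4 CANX probe sets had signals of at most 413 on every array and log2 changes from -0.32 to 0.39 on E60 versus E50.

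DNAJB9 was the chaperone gene with the largest difference on E60. Its product, ERdj4, is a J-domain partner of BiP that is induced when unfolded proteins accumulate in the ER. The signals were 307 on E40, then 334 on E50 and 615 on E60. E60 stood 1.84-fold above E50, short of the limit, and 2.01-fold above E40, where the gene was called higher. The other 2 probe sets of DNAJB9 showed the same order, at 563 on E60 against 291 on E50 and at 273 on E60 against 132 on E50, or 0.95 and 1.05 on the log2 scale. All 3 probe sets thus placed the difference in the second step. On E60 versus E40 the call on the brightest probe set was lost (log2 0.90) when the probe sets were averaged, and also with scaling to housekeeping genes (0.94).

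The other J-domain proteins of the ER had log2 changes of 0.05 (DNAJB11), 0.24 (DNAJC3) and -0.50 (DNAJB14) on E60 versus E50, read from their brightest probe sets. DNAJB11 (ERdj3), which binds clients of BiP, was at 707 on E40, then 729.6 on E50 and 757 on E60. DNAJC3, a further BiP partner, was at 140.3 on E40, then 158 on E50 and 187 on E60. A second, dimmer DNAJC3 probe set was at 66.6 on E60 and under the 25th percentile on E50, with a log2 change of 1.95, so the size of the DNAJC3 difference depends on the probe set. DNAJB14, an ER membrane protein, was at 437 on E40, then 612 on E50 and 433 on E60, with its highest signal on E50. Its second probe set had the opposite order, lowest on E50 (383 on E40, then 306 on E50 and 466 on E60), so no direction can be given for DNAJB14.

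The disulfide isomerases, which form and rearrange the disulfide bonds of secreted proteins, had no common direction. PDIA3, the isomerase that works with calnexin and calreticulin, was brighter at each stage (4059 on E40, then 4735 on E50 and 5306 on E60), and its dimmer probe sets had log2 changes of 0.06 and 0.51 on E60 versus E50. The first of these dimmer probe sets was highest on E40 (380, then 302 on E50 and 316 on E60), and the other was brighter at each stage. The direction of PDIA3 relative to E40 thus rests on the probe set. PDIA4 peaked on E50 (2636 on E40, then 3121 on E50 and 2414 on E60). PDIA6 was lowest on E60 (7864 on E40, then 7587 on E50 and 6541 on E60). The log2 changes on E60 versus E50 were 0.16, -0.37 and -0.21, and none passed the SD between bright probe sets, that of PDIA4 lying just under it.

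**Figure D2:**
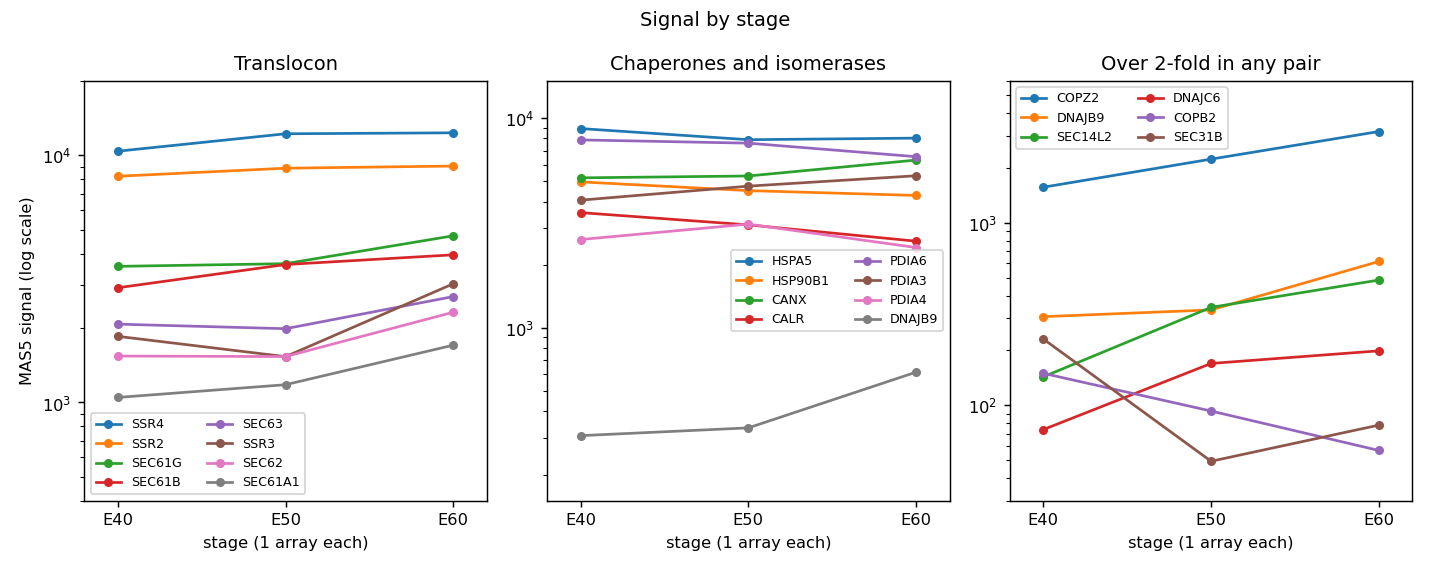
MAS5 signal (vertical axes, log scale) on E40, E50 and E60 (horizontal axes, 1 array each) of the translocon genes (left), of chaperones and disulfide isomerases (middle) and of the genes that passed 2-fold in any pair of stages (right). SSR3 stands at 3024 on E60 against 1533 on E50, whereas HSPA5 stands at 8019 and 7882 on the same stages.

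Genes of the COPII coat were lowest on E50 in 5 of 7 cases. On E60 versus E50, 6 of 7 had a log2 change above 0 (median 0.29), 5 with equal medians. In the earlier step 2 of 7 did (median -0.16), but 6 with equal medians (median 0.23). SEC24D encodes a cargo adaptor of the coat that zebrafish need to export collagen. It was at 1425 on E40, then 1231 on E50 and 1803 on E60, or 1.46-fold on E60 versus E50. SEC31A, an outer coat subunit, was at 4212 on E40, then 3737 on E50 and 4574 on E60. SEC23A and SEC23B form the inner coat. SEC23A stood at 2049.8 on E60 against 1647 on E50 and SEC23B at 1398 on E60 against 1166 on E50. A second probe set of SEC23A and 2 further ones of SEC31A were also lowest on E50. SEC13 and SEC24C were not lowest on E50: SEC13 was at 929.9 on E40, then 1162 on E50 and 1178 on E60 and SEC24C at 1260.1 on E40, then 1397 on E50 and 1364 on E60.

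SEC31B, a paralog of SEC31A, was the member with the largest difference of the whole group. It fell to 49.4 on E50 against 231 on E40, 4.68-fold lower, and stood at 78.0 on E60 against 231 on E40, 2.96-fold lower. With dim signals raised to the 50th percentile of each array neither difference was called (log2 -0.89 and -0.81). SEC31B was the 1 of 70 members called lower on E50, while of the 6192 genes measured in that pair 7.98% were lower and 2.73% higher. The listed markers of skeletal muscle moved with this pair of stages. All 12 were lower on E50 than on E40, and their summed signal was 938 on E50 against 40685 on E40. In keratinised epithelium, 4 of 5 measured markers were lower, with a summed signal of 3729 on E50 against 15059 on E40. The part of these tissues in the values of SEC31B was not tested, and in pooled germs fewer cells of a type and less RNA per cell cannot be told apart.

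All 6 p24 genes had changes within the SD between bright probe sets on E60 versus E50, 4 above 0 and 2 below. TMED2, TMED10, TMED3 and TMED7 had log2 changes of 0.36, 0.35, 0.34 and 0.33 on E60 versus E50. TMED2 and TMED10 encode the partners found in most p24 complexes. TMED2 was at 8036 on E40, then 7820.0 on E50 and 10014 on E60, and TMED10 at 4275 on E40, then 4769 on E50 and 6091 on E60. A second TMED10 probe set had a smaller log2 change, of 0.08, with 697 on E60 against 658 on E50. TMED3 was brighter at each stage (828 on E40, then 1165 on E50 and 1476 on E60) and was 1.78-fold above its E40 level on E60. For TMED7, all 4 probe sets were higher on E60 than on E50, by 0.03 to 0.60 on the log2 scale. TMED4 (1174 on E40, then 1146 on E50 and 1051 on E60) and TMED5 (664 on E40, then 427 on E50 and 417 on E60) were lowest on E60, although another TMED4 probe set read 814 on E60 against 613 on E50.

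COPI genes had changes in both directions. Of the 7 genes, 5 had a log2 change above 0 on E60 versus E50 (4 with equal medians), and the changes ran from -0.72 to 0.50. COPZ2, 1 of 2 alternative zeta subunits, was brighter at each stage (1571 on E40, then 2239 on E50 and 3173 on E60) and was called higher on E60 than on E40 (2.02-fold). The call on COPZ2 was lost with quantile normalization (0.96 on the log2 scale) and with scaling to housekeeping genes (0.95). The alternative zeta subunit gene, COPZ1, was at 2305 on E40, then 2607 on E50 and 2655 on E60. COPB1, the beta subunit, was at 3357 on E40, then 4037 on E50 and 5268 on E60, also brighter at each stage, and its second probe set had a log2 change of 0.05 on E60 versus E50. COPA, the alpha subunit, was at 3955 on E40, then 3826 on E50 and 4338 on E60.

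The gamma subunit genes went in opposite directions. COPG1 was lowest on E50 (2401 on E40, then 1700.2 on E50 and 2358 on E60) and COPG2 highest on E50 (2324 on E40, then 2972 on E50 and 2178 on E60). Their log2 changes on E60 versus E50 were 0.47 and -0.45, both just past the SD between bright probe sets. COPB2, the beta-prime subunit, was read by a single and rather dim probe set at 149.9 on E40, then 93.1 on E50 and 56.6 on E60. It was called lower on E60 than on E40 (2.65-fold lower), where SEC31B was the only other coat subunit so called. All 3 signals of COPB2 lie under the 50th percentile of their arrays.

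The remaining SEC genes were not called on E60 versus E50. SEC22C, a SNARE-related protein of the ER, was at 100 on E40, then 123 on E50 and 122 on E60. SEC23IP, which binds the COPII coat, was at 1785 on E40, then 1768 on E50 and 1858 on E60. SEC14L1 and SEC14L2 are lipid-binding proteins and were counted as members outside the ER. SEC14L2 rose to 345 on E50 against 143 on E40 (2.4-fold) and had 487 on E60 against 143 on E40 (3.39-fold), the largest rise among the members. SEC14L1 was at 1984 on E40, then 1714 on E50 and 2349 on E60.

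Most of the 14 remaining J-domain proteins work in the cytosol, the nucleus or mitochondria. Of these, 10 had a log2 change above 0 on E50 versus E40 (median 0.33), and 6 on E60 versus E50 (median -0.10, 4 genes with equal medians), while 53.1% and 46.0% of all genes were above 0 in these pairs, which share the E50 array. The difference between the steps was not tested. DNAJC6 encodes auxilin, which uncoats clathrin vesicles. DNAJC6 rose to 169.8 on E50 against 73.7 on E40 (2.3-fold) and was also called on E60 versus E40, at 199 on E60 against 73.7 on E40 (2.7-fold). Its signals were dim, and with a limit at the 50th percentile of each array neither call was made. DNAJC19 of the mitochondrial import motor (619.6 on E40, then 963 on E50 and 824 on E60), DNAJC5, a chaperone of secretory vesicles (298 on E40, then 447 on E50 and 408 on E60), and DNAJB1, the Hsp40 of the heat shock response (692 on E40, then 1018 on E50 and 885 on E60), peaked on E50. DNAJC8 and DNAJC17, which are linked to splicing, also peaked there, with log2 changes of -0.40 and -0.50 on E60 versus E50.

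DNAJC9, a histone chaperone, had the lowest log2 change of all members on E60 versus E50 (-0.80, with 314 on E60 against 546 on E50). DNAJB4, DNAJB2 and DNAJB6 are partners of cytosolic Hsp70, and all were lowest on E50. DNAJB4 was at 486 on E40, then 355 on E50 and 544 on E60 and DNAJB2 at 264 on E40, then 191 on E50 and 221 on E60. DNAJB6 was at 3622 on E40, then 3082 on E50 and 3202 on E60, and its 3 dimmer probe sets moved apart on E60 versus E50 (-0.52 to 0.20). The last 4 of this group, DNAJC2 of the ribosome, DNAJC11 of mitochondria, DNAJC14 and DNAJC24, which acts in diphthamide synthesis, had log2 changes from -0.11 to 0.35 on E60 versus E50. DNAJC14 is an ER membrane protein that the grouping by symbol left here. Without the J-domain proteins of this group and the SEC14-like proteins, 54 members were left, with a median of 0.17 on E60 versus E50 and 38 of 54 above 0.

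Across the 3 stages the members were most often brightest on E60 with the authors' scaling. This was so for 40 of 70 (57.1%), against 29.3% of the 5743 genes that lay above the percentile on all 3 arrays. Signals were brighter at each stage for 25 members (35.7%, all genes 19.2%) and dimmer at each stage for 8 (11.4%, all genes 19.2%). The remaining members had their peak on E50 (16, or 22.9%, all genes 36.7%) or their lowest value on E50 (21, or 30%, all genes 24.8%). These shapes count any difference in signal, however small, and rest on single arrays.

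In the first step, E50 versus E40, 2 members were higher (SEC14L2 and DNAJC6) and 1 lower (SEC31B), beside 2.73% higher and 7.98% lower among 6192 genes. The median log2 change was 0.08, against 0.04 over all genes, and 41 of 70 members were above 0 (58.6%, all genes 53.1%). On E60 versus E40, 4 members were higher (SEC14L2, DNAJC6, COPZ2 and DNAJB9) and 2 lower (SEC31B and COPB2), beside 4.44% higher and 7.21% lower among 6197 genes. The median was 0.22, against -0.01 over all genes, and 48 of 70 members were above 0 (68.6%, all genes 49.5%). With the arrays scaled to equal medians, 7 members were higher on E60 than on E40, among them SSR3, SEC61A1 and TMED3. That is 7 of 70, beside 8.78% of all genes called higher under the same scaling.

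The members were also set beside genes of like brightness, a split chosen after their values were seen. Among the brightest 25% of genes, the 41 members showed a median of 0.16 on E60 versus E50, with 30 of 41 above 0, whereas the other 1650 genes had a median of -0.06, with 39.9% above 0. In the first step the same 41 members had a median of 0.03 on E50 versus E40, with 22 of 41 above 0, against 0.19 and 72.8% for the other genes. Over both steps together, on E60 versus E40, the medians were 0.20 and 0.11. These differences were not tested.

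**Figure D3:**
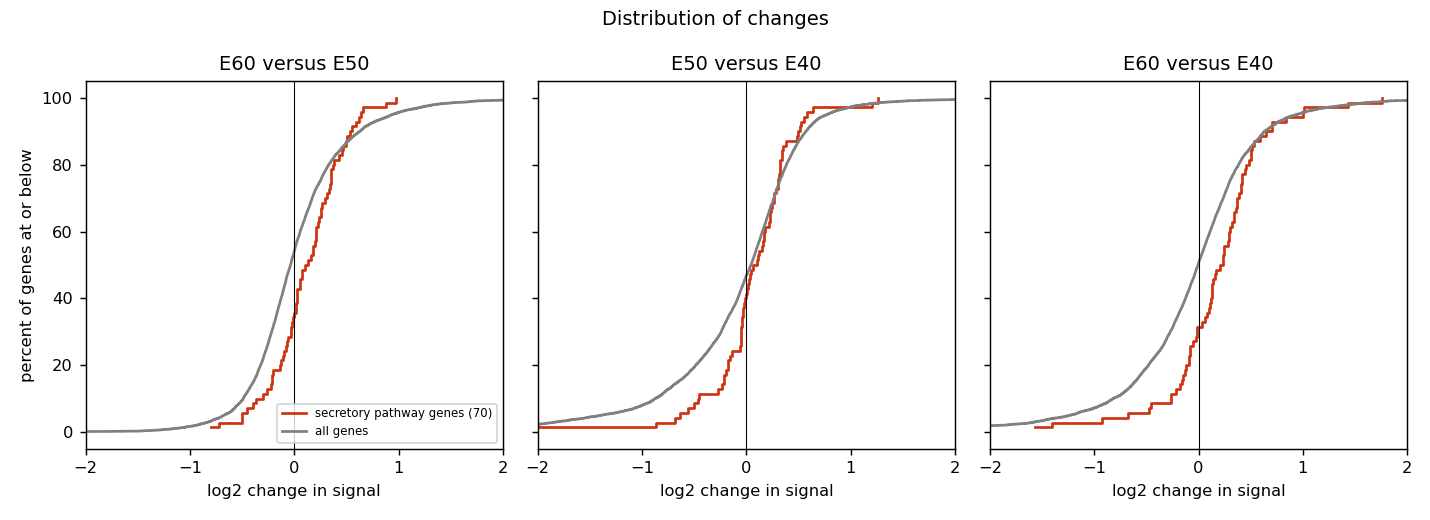
Percent of genes (vertical axis) at or below each log2 change in signal (horizontal axes, cropped at -2 and 2) for the 70 secretory pathway genes (red) and for all genes measured (grey) on E60 versus E50, E50 versus E40 and E60 versus E40. The red curve lies to the right of the grey one around the middle on E60 versus E50 (medians 0.12 and -0.04) and on E60 versus E40 (0.22 and -0.01).

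Further probe sets gave a partial check of these readings. Of the members, 26 had more than 1 probe set. Of the 44 other probe sets, 39, from 23 genes, lay above the percentile on all arrays. On E60 versus E50, 28 of 39 had the direction of the brightest probe set of their gene, as did 13 of the 19 with a mean signal of at least 200. In each of the other pairs it was 24 of 39. The median log2 change of the 39 was 0.08 on E60 versus E50, and 2 of them, of DNAJB9 and SRP19, were over 2-fold higher. On E50 versus E40, 1 of the 39 was over 2-fold higher (CANX, at 413 on E50 against 202 on E40) and 3 were lower (probe sets of CANX, SEC31A and SRP19). Probe sets of 1 gene share the RNA and the array, so they bear on the reading of a transcript and not on the pools.

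**Figure D4:**
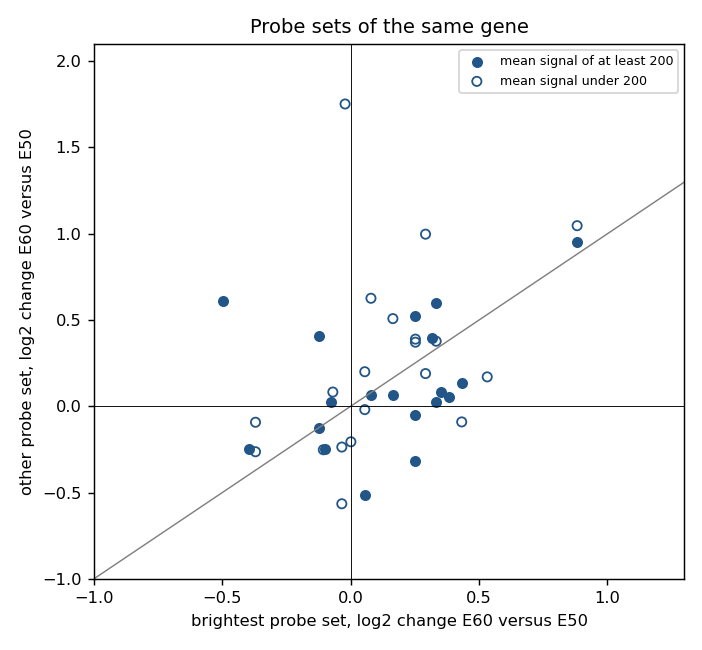
Log2 change on E60 versus E50 of each further probe set (vertical axis) against that of the brightest probe set of the same gene (horizontal axis), for the 39 further probe sets above the percentile on all arrays, filled where their mean signal is at least 200 and open below. The grey line marks equality, and 28 of the 39 points have the same direction on both axes.

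The neighbouring genes of the pathway were counted from lists written with earlier results of these arrays known. Among genes of the unfolded protein response and ER degradation, by which a cell answers and clears misfolded protein, 16 were on the array. A total of 0 were called on E60 versus E50, 13 of 16 had a log2 change above 0 (11 with equal medians), and the median was 0.23. XBP1, the transcription factor that raises ER capacity in secretory cells, was at 3722 on E40, then 4171 on E50 and 6073 on E60, or 1.46-fold on E60 versus E50. SDF2L1, which works with the J-domain protein ERdj3, was at 165 on E40, then 177 on E50 and 335 on E60 and was called higher on E60 than on E40 (2.03-fold), a call that was lost with housekeeping scaling (0.95 on the log2 scale). It was the 1 gene of these 16 called in that pair, where 4.44% of all genes were higher. ATF4 and DDIT3, which act in the stress branch of the response, had log2 changes of 0.11 and 0.20 on E60 versus E50.

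Of 43 further genes of ER folding, glycosylation and collagen modification, 3 were higher on E60 than on E50, 0 were lower, and 29 had a log2 change above 0 (median 0.16). Among all genes 4.37% were higher and 1.75% lower. With equal medians 1 of the 43 was higher (all genes 3.67%) and 25 were above 0. P4HA2 encodes a catalytic subunit of prolyl 4-hydroxylase, the enzyme that hydroxylates procollagen. It rose to 4066 on E60 against 1897 on E50 (2.14-fold). FKBP7, a prolyl isomerase of the ER, rose to 1135 on E60 against 552 on E50 (2.06-fold), and ALG13, of the first steps of sugar assembly, to 516 on E60 against 250.2 on E50 (2.06-fold). SERPINH1, the collagen chaperone HSP47, stood at 4095 on E40, then 4016 on E50 and 5105 on E60 without a call.

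Among 44 further genes of ER-Golgi transport 0 were called on E60 versus E50, and 27 were above 0 (median 0.07, turning to -0.01 with equal medians). On E60 versus E40, 2 of the 44 were higher and 0 lower, beside 4.44% and 7.21% of all genes. KDELR3, a receptor that returns ER proteins from the Golgi, was 2.74-fold higher (1512 on E40, then 2370.0 on E50 and 4146 on E60). SURF4, a cargo receptor of the ER, was 2.34-fold higher in the same pair (1573 on E40, then 1988 on E50 and 3677 on E60). On E50 versus E40 the list had 1 call, a lower one, where 7.98% of all genes were lower. This was NSF, the ATPase that takes SNARE complexes apart, at 275 on E50 against 582 on E40 (2.12-fold lower). With equal medians it was not called.

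The cargo itself had larger differences on E60 versus E50. Of 18 measured genes of the enamel, dentin and bone matrix, 10 were higher on E60 than on E50 and 0 lower, with a median log2 change of 1.20. Among the 10, DMP1 (under the percentile on E50, 49.6 on E60) and COL3A1 (32.4 on E50, 74.0 on E60) were dim. Their signals lay under the 50th percentile of both arrays. The summed signal of the 19 genes on the array was 132075 on E60 against 52626 on E50 (2.51-fold). The summed signal of the 70 members was 190934 on E60 against 176444 on E50 (1.08-fold). In the first step the cargo had a median of -0.40 on E50 versus E40, with 4 higher and 6 lower (4 and 4 with equal medians), while the summed signal of the members was 1.06-fold that on E40. On E60 versus E40 the cargo had a median of 0.16, with 6 of 19 higher and 4 lower, beside a median of 0.22 for the members. The summed signals were 1.99-fold and 1.15-fold those on E40. The larger median of the cargo on E60 versus E50 thus rests on the E50 array, but this does not hold for each gene. AMBN, AMELX, ENAM, MMP20 and DSPP were 102-fold to 577-fold higher on E60 than on E40. AMELX, ENAM and DSPP lay under the percentile on E40, so their ratios depend on that limit. COL5A1, BGLAP, TNC and KLK4 were called lower in that pair.

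Markers of the cells in the germ moved in the same pair, and several of them are also in the cargo list. On E60 versus E50 the summed signal of the ameloblast markers was 59209 on E60 against 5143 on E50, with 4 of 4 measured genes higher and KLK4, an enamel protease, under the percentile on both arrays. For odontoblast and bone markers it was 42466 on E60 against 25307 on E50, with 4 of 8 higher, among them the dim DMP1. BGLAP, the gene of osteocalcin, was at 54.0 on E60 against 50.2 on E50. Endothelial markers summed to 2101 on E60 against 1245 on E50, with 1 of 4 higher, and macrophage markers to 751 on E60 against 546 on E50, with 0 of 3 called. Muscle markers summed to 3659 on E60 against 938 on E50, most of it MYL1 (3266 on E60 against 481 on E50), with 2 of 11 higher and 1 lower. The part of a changed mix of cells in the members' values was not tested.

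**Figure D5:**
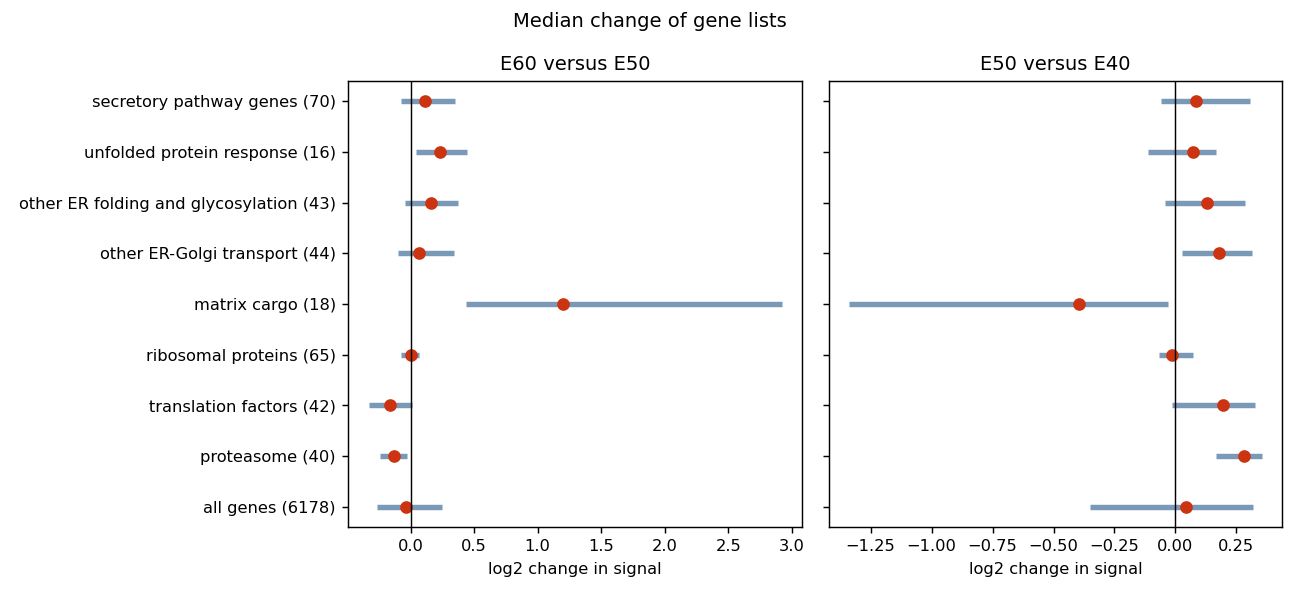
Median log2 change in signal (red points) and interquartile range (blue bars) on E60 versus E50 (left) and E50 versus E40 (right, on a scale of its own) for the secretory pathway genes, neighbouring gene lists, other protein synthesis and breakdown genes and all genes (vertical axis, genes measured on E60 versus E50 in brackets). The matrix cargo stands at 1.20 on E60 versus E50, far from the secretory pathway genes at 0.12, while the proteasome stands at -0.13.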

How the data were processed

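The authors computed signals with the MAS5 algorithm in GeneSpring, scaled each array and deposited log2 values. Of 24123 probe sets, 124 controls were left out. Of the other 23999, the platform annotation gives 10069 a single gene symbol, 198 several and 13732 none. All 70 members matched a pig RefSeq gene table (Sscrofa11.1) by gene ID, and 0 symbols differed. The depth of an array has no count, so the number of arrays, 1 per stage, limits precision. Fold changes are ratios of 2 arrays after dim signals were raised to the 25th percentile of their array. Calculations used Python 3.11.15, numpy 2.4.6 and pandas 2.3.3, and the calling step was tested on simulated data.

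The members and gene lists were chosen with earlier results of these data known. Named genes are the 7 listed individually, the brightest member of each role, and the 8 largest rises and 8 largest falls in each pair; other genes were named after their values were seen. Alternatives were no limit on dim signals, a limit at the 50th percentile, a common limit, and scaling to equal medians or to 12 housekeeping genes. Further ones were quantile normalization, averaged probe sets, probe sets without suffixes of shared matches, fewer members, and limits of 1.5-fold and 3-fold. Of the 12 housekeeping genes, TFRC lay under the percentile on all arrays, and YWHAZ was called lower on E60 than on E50 (2.24-fold). RPS18, RPL4, RPLP0 and EEF1A1 also belong to the groups of protein synthesis genes compared below. No sequence is shown, as the tables used here hold none.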

Additional observations from a re-analysis of the deposited data

How the results depend on the processing

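With 1 array per stage no replicate could be left out, and no paired analysis was possible because each stage has a single pool. The median log2 change of the members exceeded that of all genes by 0.11 to 0.21 on E60 versus E50 and by 0.08 to 0.22 on E60 versus E40 under every setting that gave a median. Equal medians and housekeeping scaling add the same amount to every gene, so they could not change this excess (0.15 and 0.22). In the first step, E50 versus E40, the excess ran from -0.08 to 0.05, so its direction depends on the setting. Equal medians moved the members' median to 0.47 for E50 against E40 and to 0.53 for E60 against E40, together with that of all genes, and gave 7 higher members (all genes 8.78%) on E60 versus E40. In the remaining pair they left 37 of 70 members above 0, against 38.2% of all genes. Averaging probe sets gave 1 higher member on E60 versus E50 (DNAJC3) and 2 lower in the first step (SEC31B and SRP19). With averaging, 4.25% of all genes were higher on E60 versus E50 and 8.69% lower in the first step. A limit at the 50th percentile left 1 higher and 0 lower members in the first step and 0 lower on E60 versus E40, where housekeeping scaling left 2 higher. With this limit 2.18% of all genes were higher and 4.09% lower in the first step. On E60 versus E40 4.33% were lower with it, and 3.87% were higher with housekeeping scaling. Without the members outside the ER, 0 of 54 were higher in the first step and 2 on E60 versus E40 (all genes 2.73% and 4.44%). At 1.5-fold the higher and lower members numbered 6 and 2 on E60 versus E50, 4 and 4 in the first step, and 9 and 4 on E60 versus E40. The shares of all genes at 1.5-fold were 11.04% and 6.77%, 9.58% and 16.8%, and 11.8% and 15.9% in these pairs. At 3-fold 0 members were higher and 1 lower in the first step (all genes 0.84% and 4.02%). On E60 versus E40 1 was higher and 0 lower (all genes 1.52% and 2.92%). Values of 43 named members were compared under these settings, apart from fewer members and the limits of 1.5-fold and 3-fold. Of 1018 such values, 1004 kept their call and stayed within 1.5-fold, 14 did not, and 0 called changes reversed. Only 9 changes were called. Equal medians moved log2 changes by at most 0.39, less than 1.5-fold, so that setting could change a label only near 2-fold. Averaging could not change the 44 of 70 members with 1 probe set, and limits on dim signals could not change signals above them. Many of the 1004 values were thus bound to stay. The count ignores the sign of uncalled changes and is no test of their direction. CALR, for example, turned from -0.19 to 0.19 on E50 versus E40 with equal medians. Signals near the percentile, as for SPCS2, bound what dim probe sets can show.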

Other observations

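Other genes of protein synthesis and breakdown were set beside the secretory pathway genes. Of 40 proteasome subunit genes, 33 had a log2 change below 0 on E60 versus E50 (median -0.13) and 35 were above 0 on E50 versus E40 (median 0.28). Translation initiation and elongation factor genes went likewise, with 29 of 42 below 0 on E60 versus E50 (median -0.16) and 31 of 42 above 0 on E50 versus E40 (median 0.20). The medians of both groups kept their sign in these pairs with equal medians, quantile normalization and housekeeping scaling. The 65 measured ribosomal protein genes had medians of 0.01 and -0.01 in these pairs, which turned to -0.07 and 0.37 with equal medians. Neither the proteasome genes nor these factors held a called gene on E50 versus E40, and 1 factor gene and 1 ribosomal protein gene were higher on E60 than on E50. On E50 versus E40, 3 ribosomal protein genes were lower. These gene groups were chosen after their values were seen, both pairs share the E50 array, and the differences between the groups were not tested.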
